A study of Petromyzon marinus and Lampetra planeri with 28 samples.

Results

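The dorsal neural tube (DNT) of vertebrate embryos gives rise to neural crest cells, which leave it and form pigment cells, peripheral neurons, glia and much of the head skeleton, and to dorsal neurons of the central nervous system. Genes of differentiated cells are commonly silent in such progenitors and are first transcribed as the cells mature. The sea lamprey loci described here were chosen by their normalised read counts: all 5 DNT libraries of stages T18 and T20 had at most 10, and all 3 libraries of stage T21 had at least 60. Of 56319 loci in the normalised table, 20 met both limits. Because the loci were selected on these values, the T21 levels of the 20 loci, and their differences from T18 and T20, are given as a description with no test.

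T18, T20 and T21 are successive stages of the Tahara series for lamprey embryos. The study dissected DNTs, with the neural crest cells in and around them, from the heads of sea lamprey (*Petromyzon marinus*) embryos, for which no treatment or genotype is given, and sequenced their polyA RNA, with 3 libraries of 30 embryos each at T18, 2 libraries of 35 embryos at T20 and 3 libraries of 35 embryos at T21. Accessible chromatin was mapped by ATAC-seq, in which a transposase cuts open DNA, in 9 sea lamprey and 10 brook lamprey (*Lampetra planeri*) libraries from T20 DNTs, T21 DNTs and T23 heads, and the peaks of each species were deposited as 1 set of positions, merged over stages. These sets held 236315 peaks in sea lamprey and 314377 in brook lamprey, both placed on the sea lamprey germline genome assembly, whose scaffolds and coordinates are used throughout. Each RNA library is a pool of different embryos, and the errors and p-values below measure the spread between such pools.

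The libraries held between 12172421 and 91015285 counted reads, a 7.48-fold range, so the limits meant different numbers of reads in different libraries. A single read was worth 1.25, 0.826 and 0.270 normalised counts in the 3 T18 libraries, 1.49 and 1.86 in the 2 T20 libraries, and 1.95, 1.53 and 0.370 in the 3 T21 libraries. The upper limit of 10 therefore allowed 8, 12 and 36 reads at T18 and 6 and 5 reads at T20, and the lower limit of 60 needed 31, 40 and 163 reads at T21. Loci named as neural crest regulators were present at every stage, with a summed normalised count of 28836 to 31890 at T18, 30324 to 39098 at T20 and 61747 to 63561 at T21 over 58 loci. Because DNT is a mixture of cells, fewer cells of a type and less RNA per cell cannot be told apart in any value below.

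Of the 20 loci, 13 carried a gene name, 3 were listed as "unknown" and 4 had no name. The names come from name columns that cover only loci that changed with stage, taken from the gene models of the genome assembly. The named loci covered unlike functions: a proneural transcription factor (*ATOH1*), an extracellular matrix protein (*Matn4*), a muscle intermediate filament protein (*Des*), a glutamate receptor subunit (*Gria4*), a membrane protein of neural and glial cells (*Gpm6b*), an actin-binding profilin (*Pfn2*), a mitochondrial citrate carrier (*SLC25A1*), a copper-dependent monooxygenase (*MOXD1*), and a Wnt-cleaving membrane protease (*trabd2b*). One locus overlapped annotations of both *VPS33A*, a lysosomal tethering factor, and *NDUFA2*, a subunit of respiratory complex I. The entries *Fatty*, *Red-sensitive* and *ORF73* are incomplete or generic names, and no role is given for them here.

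Levels at T21 were low for expressed loci. The mean T21 normalised count of the 20 loci lay between 69.9 and 599 with a median of 106, beside a median of 662 over the other 13076 loci with every T21 value at or above 60. Per kilobase of exon, the T21 level lay between 17.2 and 156 with a median of 36.6, beside 148 over those other loci. Of the 20 loci, 18 averaged under 200 and 13 under 120, and together they took only 0.0108% to 0.0130% of the counted reads of a T21 library. The spread between the T21 libraries was also wider, with a median coefficient of variation of 16.5% (5.83% to 40.7%) against 8.12% over the other loci. Those other loci had higher counts, while a T21 library held as few as 32 reads of a locus here. The part of counting error in this wider spread was not tested.

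**Figure D1:**
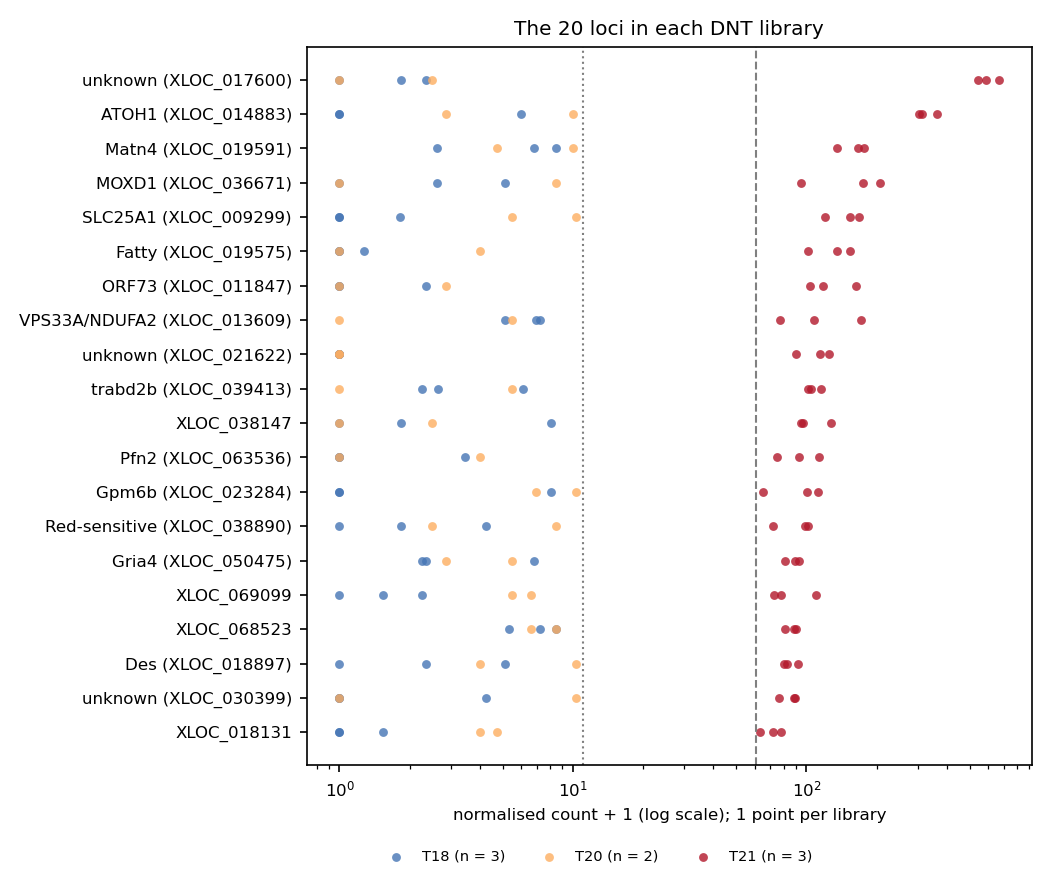
Normalised read count plus 1 (log axis) of each of the 20 loci (rows, ordered by T21 mean) in the 8 DNT libraries, 1 point per library coloured by stage, with the limits of 10 (dotted) and 60 (dashed) drawn. No earlier point passes the first limit, several T18 and T20 points sit at 0 reads, and XLOC_017600 and *ATOH1* stand highest at T21.

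The highest locus, XLOC_017600, was listed as "unknown". It spans scaf_00015 bases 10233697 to 10247382 on the plus strand, with 7 assembled transcripts of up to 5 exons. Its normalised count was 0, 0.83 and 1.35 in the T18 libraries, 1.49 and 0 in the T20 libraries, and 545, 586 and 668 in the T21 libraries (599 ± 62.6, SD, n = 3). The T21 libraries held 280, 383 and 1804 of its reads, while no earlier library held more than 5. Pooled over libraries, T21 was 769 times T20, with a 95% counting interval of 138 to 30384, and 607 times T18, with an interval of 278 to 1655. These intervals cover counting error only, and reads without molecular identifiers are not independent molecules.

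*ATOH1* (XLOC_014883), which encodes the proneural bHLH factor of the dorsal-most neural progenitors and of hair cells in mouse, was second. It lies at scaf_00012 bases 15997110 to 16002538, plus strand, with up to 3 exons. Its normalised count was 4.99, 0 and 0 at T18, 8.97 and 1.86 at T20, and 304, 311 and 361 at T21 (325 ± 31.3, SD, n = 3). The pooled T21 count was 59.4 times that of T20 (interval 28.7 to 148) and 492 times that of T18 (interval 192 to 1809). The highest T20 library held 6 reads of *ATOH1*, the limit of the rule in that library.

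Matrix and cytoskeletal proteins formed a small group. *Matn4* (XLOC_019591, scaf_00017 bases 7810420 to 7824288, plus strand) encodes a matrilin, an adaptor between collagens and other matrix fibres. Its normalised count was 7.49, 5.78 and 1.62 at T18, 8.97 and 3.72 at T20, and 134, 176 and 166 at T21, so that T21 was 24.6 times T20 (interval 12.4 to 57.3). *Matn4* was detected in all 5 earlier libraries, with 2 to 7 reads in each. *Des* (XLOC_018897, scaf_00016 bases 15559242 to 15573751, minus strand) encodes desmin, the intermediate filament protein of muscle. It had 0, 4.13 and 1.35 at T18, 2.99 and 9.31 at T20, and 81.7, 79.6 and 90.7 at T21, and T21 was 15.1 times T20 (interval 7.25 to 37.8). *Pfn2* (XLOC_063536, scaf_00891 bases 17042 to 18793, plus strand) has only 655 exonic bases, and with 141 normalised counts per kilobase at T21 it was among the highest per length. It had 0, 0 and 9 reads at T18, 2 and 0 at T20, and 38, 60 and 302 at T21.

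Of the neural and glial membrane proteins, *Gria4* (XLOC_050475, scaf_00067 bases 979264 to 987417, minus strand), a subunit of AMPA glutamate receptors, had 1.25, 5.78 and 1.35 at T18, 4.48 and 1.86 at T20, and 79.8, 88.7 and 91.8 at T21. Over its 5044 exonic bases this was 17.2 normalised counts per kilobase, the lowest of the 20 loci by that measure. *Gpm6b* (XLOC_023284, scaf_00021 bases 5965913 to 5970776, minus strand), of the proteolipid protein family, had 0, 0 and 7.03 at T18, 5.98 and 9.31 at T20, and 64.2, 112 and 99.6 at T21. The third T18 library, the deepest of that stage, held 26 *Gpm6b* reads and the first and second held none.

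The enzymes and transporters included the loci with the widest spread at T21. *MOXD1* (XLOC_036671, scaf_00039 bases 769444 to 801328, plus strand), related to dopamine beta-hydroxylase, had 0, 4.13 and 1.62 at T18, 7.47 and 0 at T20, and 93.4, 205 and 174 at T21. The *VPS33A*/*NDUFA2* locus (XLOC_013609, scaf_00011 bases 8357753 to 8370397, plus strand) had 75.9, 170 and 107 at T21, the largest coefficient of variation of the 20 (40.7%), and was also read in all 3 T18 libraries, at 6.24, 4.13 and 5.95. *SLC25A1* (XLOC_009299, scaf_00007 bases 16506240 to 16523053, plus strand) had 0, 0 and 0.81 at T18, 4.48 and 9.31 at T20, and 167, 119 and 152 at T21. *trabd2b* (XLOC_039413, scaf_00043 bases 6859626 to 6883444, plus strand) was among the most even, with 115, 104 and 101 at T21, and T21 was 41.6 times T20 (interval 14.1 to 202). In the first T21 library, which was the shallowest of that stage, 12 of the 20 loci had their lowest T21 value, and in the second 11 had their highest.

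A single locus, XLOC_021622, had no read in any T18 or T20 library. It was listed as "unknown" and spans scaf_00019 bases 7936629 to 7969105 on the minus strand. Its transcripts had up to 26 exons, the most of the 20 loci. Its T21 values were 89.5, 124 and 113, from 46, 81 and 305 reads. Set against the floor of 3 reads in the shallowest library of each stage, T21 was at least 19.5-fold higher than T20 and at least 29.0-fold higher than T18.

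The incompletely named and unnamed loci followed the same range. *Fatty* (XLOC_019575) averaged 129 ± 26.5 and *ORF73* (XLOC_011847) 127 ± 30.9 normalised counts at T21 (SD, n = 3 each), with no more than 2 reads of *Fatty* and 5 of *ORF73* in any earlier library. *Red-sensitive* (XLOC_038890) averaged 89.6 ± 16.5, and its pooled T21 count was 19.1 times that of T20 (interval 8.11 to 59.4). Of the unnamed loci, XLOC_038147 had 95.3, 127 and 93.6 at T21, and XLOC_069099 averaged 85.9 ± 20.3, XLOC_068523 85.5 ± 4.99 and XLOC_018131 69.9 ± 7.18, and the "unknown" XLOC_030399 averaged 83.9 ± 7.32 (SD, n = 3 each). XLOC_068523 was read in every earlier library, with 3 to 16 reads in each, and had a T21 count 12.4 times that of T20 (interval 6.23 to 29.0).

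T20 and T18 were both held at or under 10 by the limits, and the loci passed the filter on low counts only through their T21 reads, so their differences between these stages are also given as a description. In edgeR's quasi-likelihood fit over 25317 loci, 2 of the 20 fell among those called higher at T20 than at T18 at a Benjamini-Hochberg adjusted p under 0.05, beside 10.8% of all loci called higher and 6.51% called lower, and nothing is read from that count. It was 0 without the second T20 library, 1 without the first T20, the second T18 or the third T21 library, and 3 without the first T18 library. With only T18 and T20 libraries in the fit, none of the 20 loci had enough reads to be tested.

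The reads behind these differences were few. *SLC25A1* had 3 and 5 reads in the T20 libraries, against 0, 0 and 3 at T18, a pooled ratio of 12.6 (interval 3.03 to 73.9). The unnamed XLOC_069099 had 3 reads in each T20 library, against 1, 0 and 2 at T18, a pooled ratio of 9.47 (interval 2.02 to 58.5). For *ATOH1*, with 6 and 1 reads at T20, against 4, 0 and 0 at T18, the pooled ratio was 8.29 (interval 2.11 to 38.6). The ratio was 0.175 (interval 0.0043 to 1.06) for XLOC_038147 and 0.444 (interval 0.087 to 1.42) for *VPS33A*/*NDUFA2*. The T20 mean lay above the T18 mean in 16 of the 20 loci, below it in 3 and equal to it in 1. All these values were capped by the limits, so the intervals are a description and not a test.

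The values nearest the limits inside belonged to XLOC_018131, whose lowest T21 value was 62.3, and to *Gpm6b*, *SLC25A1*, *Des* and XLOC_030399, each with 9.31 in the second T20 library, where that value is 5 reads. Nearest outside were XLOC_048294, named "unknown" and *qkib*, *Bo17* (XLOC_008133), *GPR98* (XLOC_015891) and the unnamed XLOC_018068, each with a highest earlier value just above 10, and the unnamed XLOC_045195, whose lowest T21 value was 56.6. Over the 20 loci the lowest T21 value was between 6.90 and 364 times the highest earlier value, leaving out XLOC_021622, for which the earlier values were 0. The highest earlier value was in a T20 library for 15 loci and in a T18 library for 4, and XLOC_021622 had no read in either stage.

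In the assembled transcriptome, the medians of the 20 loci lay under those of the other 13076 loci with every T21 value at or above 60. The median was 4 exons against 7, counted in the transcript of a locus with the most exons. Medians were also 3209.5 exonic bases against 4636, a span of 8028 bases against 16388.5, and 2 assembled transcripts against 3. A single transcript was assembled for 9 of 20 (45.0%) against 22.7%. Of the 20, 17 were spliced (85% against 93.4%) and 18 had a strand (90.0% against 95.8%). The 3 single-exon loci were XLOC_038147, with 4303 bases, XLOC_018131, with 2427, and XLOC_068523, with 625, and the last 2 of these had no strand. These loci also had the lower T21 levels given above, and the part of read number in the assembled structures was not tested. *MOXD1* had 13 exons, *SLC25A1* and *Des* 9 each and *Matn4* 8, and *MOXD1* with 31885 bases and XLOC_021622 with 32477 bases spanned the most.

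A sea lamprey peak lay within 1 kb of the assembled start in 7 of the 18 loci with a strand (38.9%), against 76.3% of the other loci with every T21 value at or above 60 and 66.6% of all loci. For brook lamprey peaks this was 13 of 18 (72.2%), against 62.1% and 60.7%. Within 2 kb, the shares were 55.6% against 86.9% for sea lamprey and 88.9% against 81.9% for brook lamprey. These are counts from 18 loci with no test, and the peak sets hold no stage, so a peak may come from T20 DNT, T21 DNT or T23 heads.

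**Figure D2:**
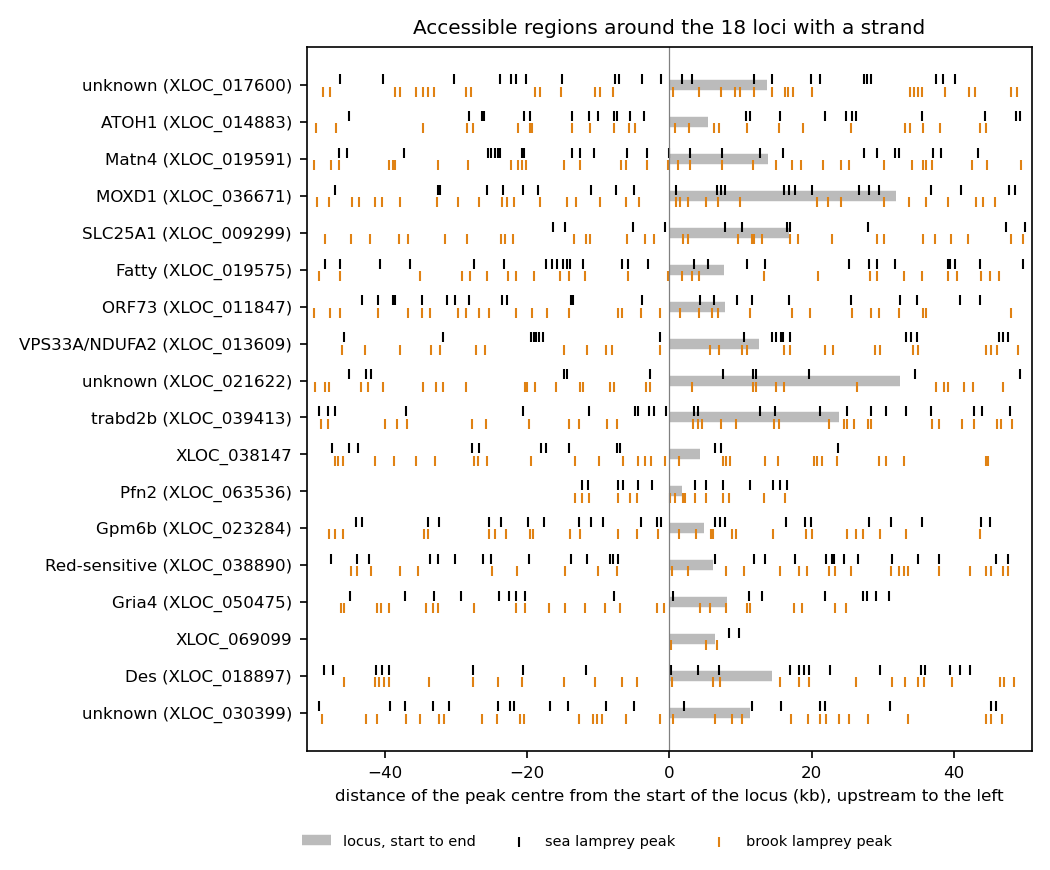
Centres of sea lamprey (black) and brook lamprey (orange) ATAC-seq peaks by distance in kb from the assembled start of each of the 18 loci with a strand (rows), with upstream to the left and the locus as a grey bar. Counted by the nearest edge of a peak, a sea lamprey peak lies within 1 kb of the start in 7 loci and a brook lamprey peak in 13. At *VPS33A*/*NDUFA2* the plotted centres of these peaks lie beyond 1 kb, at -1277 bases (sea lamprey) and -1245 bases (brook lamprey).

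Peaks of both species lay within 1 kb of the start at *Matn4*, *MOXD1*, *VPS33A*/*NDUFA2*, *Gria4* and *Des*. At *Matn4* a peak of each species covered the start itself, and at *Des* the nearest sea lamprey peak lay 51 bases and the nearest brook lamprey peak 47 bases downstream. *SLC25A1* and *trabd2b* had a sea lamprey peak only, at -434 and -299 bases (negative values lie upstream). At 8 loci only a brook lamprey peak lay in that window. Among them were XLOC_017600, whose nearest sea lamprey peak was at -1042 bases and nearest brook lamprey peak at 325, and *ATOH1*, with -3486 and 718. *ORF73*, XLOC_021622 and *Gpm6b* had a peak of neither species within 1 kb. Other same-strand loci named *ORF73* (XLOC_011848) and *Gpm6b* (XLOC_023285) lay 1286 and 5584 bases from the late *ORF73* and *Gpm6b* loci. XLOC_021622 lay in the span of the same-strand XLOC_021620. Whether the assembled starts of these loci are the starts of whole genes was not tested.

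At least 1 sea lamprey peak lay inside 14 of 20 (70.0%), against 92.6% of the other loci with every T21 value at or above 60 and 62.5% of all loci, and at least 1 brook lamprey peak inside 19 of 20 (95%), against 94.2% and 59.9%. The 6 loci without a sea lamprey peak inside were *ATOH1*, XLOC_038147, *Pfn2*, *Gpm6b*, XLOC_069099 and XLOC_068523, and XLOC_068523 was also the locus without a brook lamprey peak. Per 10 kb of span, the median was 1.43 sea lamprey peaks against 2.06, and 3.58 brook lamprey peaks against 3.22. *MOXD1* held the most, with 11 sea lamprey and 10 brook lamprey peaks, followed by *trabd2b* with 5 and 8. The part of the shorter spans of the 20 loci in these shares was not tested.

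**Figure D3:**
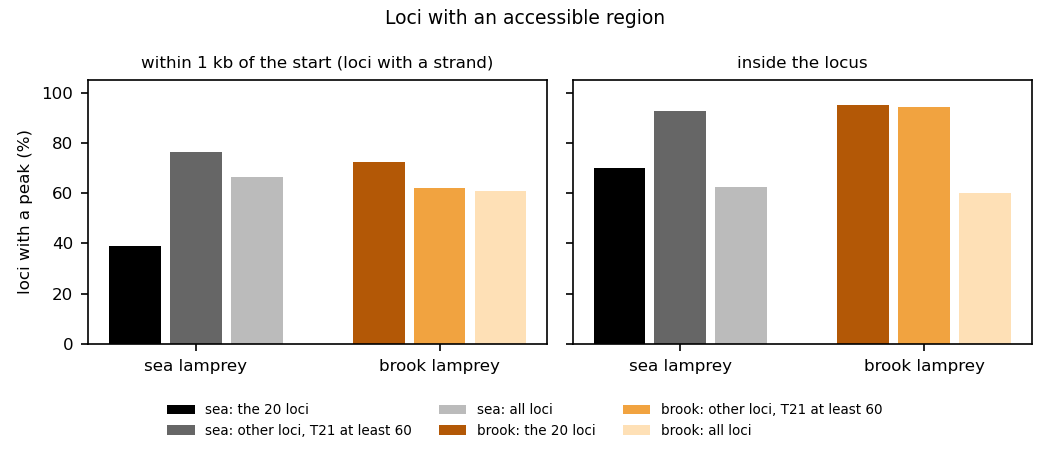
Share of loci, in percent, with at least 1 peak inside and with a peak within 1 kb of the start, for sea lamprey and brook lamprey peaks, in the 20 loci, in the other loci with every T21 value at or above 60, and in all loci of the normalised table. The sea lamprey shares of the 20 loci (70.0% inside, 38.9% at the start) lie under those of the other expressed loci (92.6% and 76.3%), and the brook lamprey shares (95% and 72.2%) do not.

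Of the 42 sea lamprey peaks inside the loci, 19 touched an exon, 2 lay in a first intron and 21 in a later intron. The 78 brook lamprey peaks were divided into 42, 12 and 24. A brook lamprey peak overlapped 45.2% of the sea lamprey peaks inside the loci, beside 37% of those in the flanks and 39.1% of all sea lamprey peaks. In the opposite direction, a sea lamprey peak overlapped 24.4% of the brook lamprey peaks inside, beside 25.6% in the flanks and 29.9% of all. The brook lamprey set is 1.33 times as large, which bears on every comparison of shares between the species.

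Within 50 kb on each side, the median was 22.5 sea lamprey peaks, against 20 around the other expressed loci, and 29.5 brook lamprey peaks, against 29. *trabd2b*, *Fatty* and *Red-sensitive* had the most sea lamprey peaks there (30, 29 and 29), and XLOC_021622, *MOXD1* and *Matn4* the most brook lamprey peaks (38, 36 and 35). XLOC_069099 and XLOC_068523 had only 2 sea lamprey peaks each, and both, with *Pfn2*, lay on scaffolds that ended inside the window.

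The loci lay on 18 scaffolds and none stood next to another. Scaffold scaf_00015 held XLOC_017600 and XLOC_018131, and scaf_00017 held *Matn4* and *Fatty*, with other tested loci between. Several overlapped a locus that was not switched on. *ATOH1* lies within the span of *Bmpr1b* (XLOC_015054), a BMP receptor gene on the opposite strand, with no exonic overlap, and *Bmpr1b* had 1430 to 1559 normalised counts at T18, 1871 and 1997 at T20 and 2110 to 2251 at T21. *MOXD1* shares 820 exonic bases with XLOC_036832 on the opposite strand, which had 1132 to 1474 in every library. The counting used strand, and *MOXD1* had at most 6 reads in any earlier library. The part of reads from XLOC_036832 in the *MOXD1* counts was not tested.

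Other overlaps were with loci that were also low before T21. XLOC_018131 lies in the span of *LRRTM3* (XLOC_017758), a synaptic membrane protein gene, which had 0 in all T18 libraries, 0 and 31.7 at T20, and 91.4, 125 and 86.2 at T21, so that a single T20 library kept it outside the limits. XLOC_018131 has no strand, and reads of *LRRTM3* introns and reads of a separate transcript cannot be told apart there. XLOC_021622 lies in the span of the same-strand XLOC_021620, also "unknown", with 0, 3.30 and 2.16 at T18, 1.49 and 11.2 at T20, and 33.1, 47.4 and 35.9 at T21. XLOC_038147 shares 1731 exonic bases with the antisense XLOC_037991, which had no read in any library, and XLOC_030399 covers all exonic bases of the antisense XLOC_030250, which had at most 3.89 in any library.

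Loci next to the 20 were not used to choose them, so their stage differences could be tested. Some of them, with few reads before T21, passed the filter on low counts only through their T21 reads. For those loci the differences at T21 are a description. The nearest tested locus on each side within 50 kb gave 27 neighbours of 16 loci, at a median gap of 13859 bases. In edgeR's test, 13 of 27 (48.1%) were higher at T21 than at T18 and 3 (11.1%) lower, beside 18.9% and 14.7% of all loci tested (33.6% either way). Some neighbours lay close to the locus or carried its name. Of the 21 over 5 kb away, 8 were higher and 2 lower, and of the 24 without the name of their locus, 10 were higher and 3 lower. Between T21 and T20, 3 of 27 (11.1%) were higher and 0 lower, beside 5.4% and 4.4% (9.8% either way), and DESeq2 called 3 higher and 1 lower. The median log2 difference of the neighbours was 0.49 for T21 over T18, beside -0.03 over all loci, and 0.21 for T21 over T20, beside 0.01. The T21 over T20 count moved between 1 and 5 as single libraries were left out. It was 1 without the second T18 library or any 1 of the T21 libraries and 5 without the second T20 library.

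The 2 neighbours nearest to a member of the 20 were higher at T21 than at both earlier stages. *TGFB2* (XLOC_038148), which encodes a secreted growth factor, lies 119 bases upstream of the unnamed XLOC_038147 on the same strand. It had 7.49, 3.30 and 12.2 normalised counts at T18, 2.99 and 3.72 at T20, and 93.4, 102 and 107 at T21, and was higher at T21 than at T20 by 4.88 on the log2 scale (SE 0.65, edgeR adjusted p = 0.00066) and than at T18 by 3.57 (SE 0.44, adjusted p = 3.5e-05). *TGFB2* passed the filter on low counts only through its T21 reads (48, 67 and 288), so both p-values are a description. A second *Matn4* locus (XLOC_019592), 325 bases downstream of the first on the same strand, had 11.2, 0.83 and 0.54 at T18, 4.48 and 16.8 at T20, and 113, 122 and 87.3 at T21. It was higher at T21 than at T18 by 5.22 (SE 0.83, edgeR adjusted p = 0.00046) and than at T20 by 3.36 (SE 0.89, adjusted p = 0.0367). This second *Matn4* locus also passed the filter only through its T21 reads (58, 80 and 236), so its p-values are a description. The T20 call was lost with DESeq2 (adjusted p = 0.0631) and without the second T18 library or any 1 T20 or T21 library (up to 0.137). Whether such pairs are 1 gene assembled in pieces cannot be read from these files.

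*WNT7B* (XLOC_038889), which encodes a secreted signal, lies 32599 bases downstream of *Red-sensitive*. It had 1.25, 0 and 2.70 at T18, 0 and 0 at T20, and 15.6, 6.12 and 16.7 at T21. Pooled, T21 was 7.65 times T18 (interval 3.97 to 16.2, edgeR adjusted p = 0.0343). That call was lost with DESeq2 (adjusted p = 0.0540) and without the first or the second T18 library (edgeR adjusted p = 0.0672 and 0.0900). T21 was at least 2.29-fold higher than T20 (edgeR adjusted p = 0.0691, and 0.0349 with no filter on low counts). *WNT7B* passed the filter only through its T21 reads (8, 4 and 45) and was not testable without the first or the third T21 library. These p-values are therefore given as a description.

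A second *Gria4* locus (XLOC_050476), 3472 bases upstream of the first, had 13.6, 18.4 and 18.5 at T21, against 0, 0 and 0.27 at T18, a ratio of 102 (interval 17.7 to 4080, edgeR adjusted p = 0.00096). Against the T20 values of 4.48 and 0 it did not pass (edgeR adjusted p = 0.138). This locus also passed the filter only through its T21 reads (7, 12 and 50), so both p-values are a description. *PLEK* (XLOC_011845), the pleckstrin gene of platelets and leukocytes, lies 12972 bases downstream of *ORF73* and had 0, 1.65 and 5.95 at T18, 17.9 and 0 at T20, and 29.2, 36.7 and 47.4 at T21. Its T21 level was above that of T18 by 3.46 on the log2 scale (SE 0.86, edgeR adjusted p = 0.0075) and did not pass against T20 (adjusted p = 0.238, and 0.0144 without the first T20 library). *PLEK* too passed the filter only through its T21 reads (15, 24 and 128), so these p-values are a description.

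**Figure D4:**
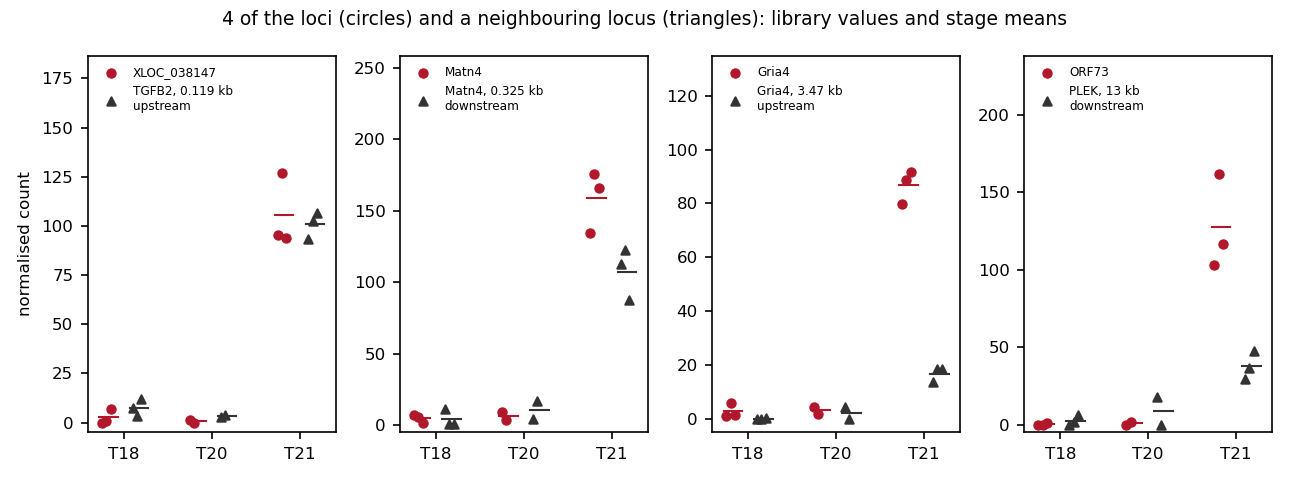
Normalised read count by stage (T18, T20, T21) of 4 of the 20 loci (circles) and a neighbouring locus of each (triangles), with 1 point per library and a line at each stage mean. The *TGFB2* values at T21 (93.4, 102 and 107) lie close to those of the nearby XLOC_038147 (95.3, 127 and 93.6), and the T21 values of the second *Gria4* locus and *PLEK* lie under those of the locus beside them.

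Several other loci with the same name were read before T21. Reads that map to several places were counted at each, so similar copies may share counts. For *MOXD1*, 3 loci on another scaffold averaged 12.7, 143 and 327 at T18, 73.7, 262 and 610 at T20, and 436, 557 and 1066 at T21, and each was called higher in T20 against T18, T21 against T18 and T21 against T20 in edgeR's test. *Gria4* XLOC_003772 averaged 662 at T20 and 1070 at T21 and was already higher at T20 than at T18 (edgeR adjusted p = 3.4e-05), while *Gria4* XLOC_003311 averaged 23.8 at T18, 21.1 at T20 and 82.8 at T21 and was higher at T21 than at T20 (adjusted p = 0.0114). *Des* XLOC_055111 averaged 1435 at T18, 1276 at T20 and 1643 at T21 with no call. *Gpm6b* XLOC_011392 averaged 272 at T18, 402 at T20 and 521 at T21. It was higher at T21 than at T18 (log2 difference 0.93, SE 0.19, edgeR adjusted p = 0.0019), with no call in the other comparisons. *ORF73* XLOC_056270 was higher at T21 (mean 41.7) than at T18 (mean 11.7), with a log2 difference of 1.73 (SE 0.53, edgeR adjusted p = 0.0228). XLOC_013610, named *NDUFA2* and *VPS33A*, was also higher at T21 (mean 969) than at T18 (mean 684, log2 difference 0.49, SE 0.12, edgeR adjusted p = 0.0071). Neither was called between T21 and T20 (edgeR adjusted p = 0.375 and 0.298). Some other namesakes were lower at T21 or had no call. *Matn4* XLOC_067210 averaged 24.3 at T18, 0 at T20 and 4.56 at T21 and was lower than at T18 both at T20 (edgeR adjusted p = 0.0061) and at T21 (log2 difference -2.46, SE 0.69, adjusted p = 0.0159). This locus passed the filter on low counts only through its T18 reads (183, against 0 at T20 and 17 at T21), so both p-values are a description. *ORF73* XLOC_066442 averaged 683 at T18, 448 at T20 and 385 at T21 and was lower at T21 than at T18 (log2 difference -0.83, SE 0.14, edgeR adjusted p = 0.00048). XLOC_036668, named *CFAP74* and *MOXD1* and overlapping the span of the late *MOXD1* locus on the same strand, averaged 70.6 at T18, 66.8 at T20 and 113 at T21 with no call. *ORF73* XLOC_011848, on the scaffold and strand of the late *ORF73* locus, had 0 in every T18 and T20 library and 5.84, 16.8 and 10.7 at T21. *Gpm6b* XLOC_023285, on the scaffold and strand of the late *Gpm6b* locus, had 0, 0 and 0.54 at T18, 0 and 0 at T20, and 1.95, 13.8 and 4.44 at T21. Neither was tested.

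**Figure D5:**
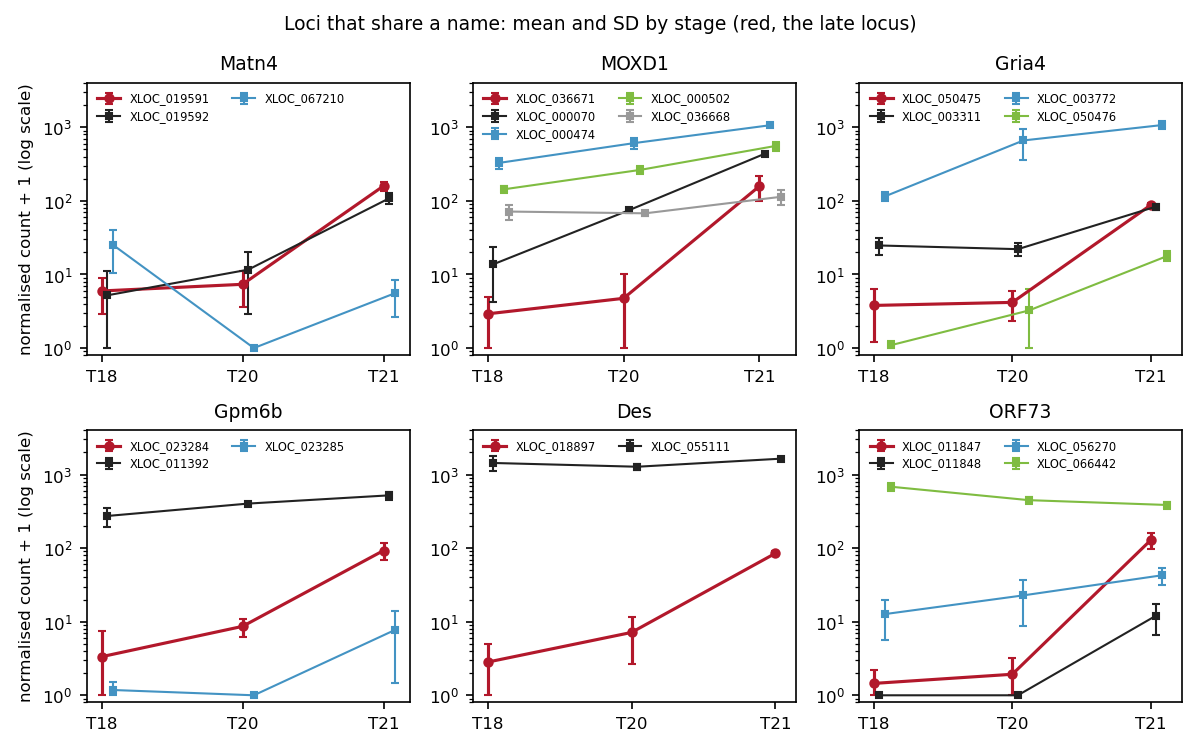
Mean normalised read count plus 1 by stage (T18, T20, T21; log axis; bars show the SD over libraries) for 6 of the loci (red) and for other loci with the same name. Of the namesakes, 2 of *MOXD1* and 1 each of *Gria4*, *Gpm6b*, *Des* and *ORF73* lie above 100 at T18, and the second *Matn4* locus, 325 bases from the first, follows it at all 3 stages.

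Among gene lists, 5 of the 20 loci fell in a list. The loci that carry names were drawn from changed loci, so the list counts are set beside the all-locus shares of 5.4% higher and 4.4% lower between T21 and T20 only as a description. *ATOH1* was 1 of 80 neuron loci, of which 63 were tested and, between T21 and T20, 22 were called higher and 4 lower, with a median log2 difference of 0.76. It was also 1 of 215 transcription factor loci (195 tested, 42 higher, 29 lower, median 0.33). *Matn4* was 1 of 167 extracellular matrix loci (152 tested, 56 higher, 11 lower, median 0.90), *Gria4* 1 of 103 receptor and channel loci (88 tested, 26 higher, 6 lower, median 0.84) and *Des* 1 of 46 muscle loci (39 tested, 11 higher, 3 lower, median 1.04). *Red-sensitive*, matched by its incomplete name only, was 1 of 24 photoreceptor and pineal loci (23 tested, 9 higher, 2 lower, median 0.42). The other 7 lists held none of the 20. Higher and lower counts at T21 over T20 were 26 and 3 of 54 for neural crest regulators, 19 and 4 of 60 for surface ectoderm, 4 and 0 of 8 for hatching gland enzymes, 7 and 1 of 49 for cilia, 11 and 1 of 22 for blood, vessel and immune cells, 5 and 1 of 22 for lens and hair cell, and 32 and 11 of 91 for secreted signals. Their median log2 differences were 1.01, 0.73, 1.31, 0.56, 2.01, 0.44 and 0.60 in that order, beside 0.01 over all loci.

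Markers of cell types that a dissected DNT could hold had higher summed levels at T21 in most lists, a description with no test. The summed normalised count of the 46 muscle loci was 9569 to 10674 at T18, 18635 to 23410 at T20 and 30575 to 35762 at T21, with 2, 5 and 0 loci at 0 in every library of the stage. *S100A1* XLOC_015805, a calcium-binding protein gene, alone averaged 1485 at T18, 6954 at T20 and 14460 at T21, and without it the sum was 8150 to 9110 at T18, 13934 to 14202 at T20 and 17884 to 19387 at T21. Of the 39 muscle loci tested, 29 were higher and 4 lower at T21 than at T18, beside 18.9% and 14.7% of all loci tested. Named loci were drawn from changed loci, so these counts are a description only. The 4 lower ones, against the 29 higher, included *TNNC2*, *MYH7* and *CACNA1S*, which encode proteins of the contractile apparatus and its calcium channel. For the 68 surface ectoderm loci the sum was 96980 to 100184 at T18, 127474 to 186820 at T20 and 247251 to 259244 at T21, and for the 8 hatching gland loci 2640 to 2792 at T18, 3046 to 3592 at T20 and 11240 to 11349 at T21. Without *Krt8* (XLOC_028492), the surface ectoderm sum was 96734 to 99930 at T18, 118370 to 153051 at T20 and 173042 to 180840 at T21. Without XLOC_036101, the hatching gland sum was 2636 to 2789 at T18, 3009 to 3592 at T20 and 7750 to 8665 at T21. The 26 blood, vessel and immune loci summed to 1329 to 1824 at T18, 1776 to 1898 at T20 and 3189 to 3763 at T21, and the 27 lens and hair cell loci to 4329 to 4711 at T18, 6159 to 6223 at T20 and 7407 to 7902 at T21. Neuron loci summed to 36147 to 36737 at T18, 39349 to 41237 at T20 and 47158 to 49013 at T21. The cilia loci overlapped between stages, at 18789 to 19573 at T18, 19569 to 19909 at T20 and 18672 to 20485 at T21, but without *CFAP20* (XLOC_010577) they summed to 11467 to 11945 at T18, 12001 to 12019 at T20 and 14878 to 15499 at T21. The photoreceptor and pineal loci summed to less after T18, with 47161 to 47511 at T18, 33859 to 36592 at T20 and 37402 to 41582 at T21. Without XLOC_011625, named *XPOT* and *otx5*, T18 and T21 lay closer, with 41357 to 44055 at T18, 32469 to 35063 at T20 and 36712 to 41075 at T21. The part of these shifts in the T21 levels of *Des*, *ATOH1*, *Red-sensitive* and the other loci was not tested.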

How the data were processed

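The authors trimmed reads with Sickle, aligned them with STAR 2.4.2 to the sea lamprey germline genome, assembled loci with Cufflinks and Cuffmerge, and counted strand-specific fragments with both ends mapped, multi-mapping reads included, with featureCounts 1.4.6-p4. The deposited read counts per locus are raw, and the authors' normalised signal is those counts divided by DESeq2 1.8.2 size factors. ATAC-seq reads were aligned with Bowtie2, de-duplicated with Picard 1.83, merged over replicates of a stage, down-sampled and called with MACS2, and the stages were merged, so the peak sets hold positions only (a peak with 1 base inside a locus counts as inside).

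Here, the counts of all 8 DNT libraries were fitted with edgeR 4.0.16 in R 4.3.3 (TMM, filterByExpr, robust quasi-likelihood, stage as the only term, adjusted over 25317 loci), with DESeq2 1.42.0 as an alternative. Scripts were tested on simulated data. Pooled ratios divide summed counts by summed size factors, with an exact 95% counting interval. Python 3.11.15, numpy 2.4.6, pandas 2.3.3 and matplotlib 3.10.9 were used. Comparison loci were those with every T21 value at or above 60. The loci, lists and tests were chosen with earlier results of these data known. Loci were named by rank in T21 mean, list membership, T20 against T18 calls, distance to the limits, peak and exon numbers, and, for neighbours, size of change. The 1 library of T20 heads and whole embryos served for transcript assembly and was not used here. The authors' fold changes and p-values were not used. No sequence is shown, because no genome of the files' build was used here. The values of 1 neighbouring locus are not reported here.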

Additional observations from a re-analysis of the deposited data

How the results depend on the processing

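The number of loci followed the limits: 6 with earlier values at most 5, 51 at most 20, 59 with T21 values of at least 30 and 7 of at least 100. It was 20 to 33 as single libraries were left out, which can only add loci, because every library had to meet its limit. T20 against T18 calls among the 20 ranged from 0 to 3 as single libraries were left out and were 0 at an adjusted p under 0.01, 3 with no filter and 2 with DESeq2 or with RLE or upper-quartile scaling. With the T18 and T20 libraries alone no value could be had, as none passed the filter. Neighbour calls at T21 over T20 were 5 with upper-quartile scaling, 1 of 21 over 5 kb away, 2 of 24 without the name of their locus, and 1 to 5 as single libraries were left out. At T21 over T18 they were 16 of 27 in all, 10 of 21 over 5 kb away, 13 of 24 without that name, and 12 to 17 as single libraries were left out. The settings by distance over 5 kb and by name were chosen after seeing the data. The median flank count was 8.5 sea lamprey and 12 brook lamprey peaks within 20 kb and 40.5 and 61 within 100 kb. Loci with a strand all (100%) held a brook lamprey peak, and the 7 loci with T21 values of at least 100 were all (100%) spliced. Replicate numbers did not pair the libraries, as the correlations of deviations lay between -0.037 and 0.080. With the replicate block, 2 of the 20 loci were called for T20 against T18, and 2 neighbours for T21 against T20 and 14 for T21 against T18. Of 78 alternative values for counts and shares, 54 stayed within 1.5 times or within the spread, and of 185 for single loci, 22 lost their call, 2 gained one and none changed direction. Depth limits the values before T21, where 1 read in a T20 library is worth up to 1.86 normalised counts.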
